A study of Tupaia belangeri with 15 samples.

Results

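The subunits of the respiratory chain that are encoded in the nucleus were examined in nuclei of tree shrew (TS) retinas. Members were the features whose name follows the naming of these subunits, namely NDUFA, NDUFB, NDUFC, NDUFS or NDUFV with a number, UQCR with letters or a number, SDHA to SDHD, COX4 to COX8 with their suffixes, and ATP5 with its suffixes. Antisense features and numbered copies, for which the files add "li" and a digit to the symbol, were left out. The rule found 80 of 83605 features, 35 of complex I, 4 of complex II, 8 of complex III, 16 of complex IV and 17 of complex V. The complex was read from the name, so NDUFA4, which is now counted with complex IV, was kept with complex I, and ATP5IF1, an inhibitor, was kept with complex V. The files give no coordinates or sequences for these features.

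The respiratory chain, in the inner mitochondrial membrane, moves electrons from NADH and succinate to oxygen. Complexes I, III and IV pump protons across that membrane as they do so. Complex V, the ATP synthase, uses the proton gradient to make ATP. A core of the subunits is encoded in mitochondrial DNA and all others in the nucleus, whose transcripts are translated in the cytosol and imported. Photoreceptors pack mitochondria into the inner segment and are among the most energy-demanding cells of the body.

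Retinas of 15 TSs had been profiled by droplet sequencing of single nuclei, 5 per stage. Ages ran from 1.4 to 2.1 months in Infancy, from 24.96 to 36 months in the Mature group and from 85.8 to 86.56 months in the Senile group. No allele, transgene or treatment is given for any group. Senile animals came from another institute than infant and mature animals, so stage and source cannot be told apart in any comparison with Senile retinas. Of 120437 deposited barcodes, 111825 nuclei remained after filters, with 387189938 unique molecular identifiers (UMIs). P-values of the stage and version comparisons measure the spread between these 15 retinas. Those between cell classes measure the spread that remains among sums per retina and class once the retinas' own differences are removed.

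The labels name Cell Ranger 5.0.1 for 7 retinas (Infancy 1 to 3, Mature 1 and 2, Senile 1 and 2) and 7.0.1 for 8 (Infancy 4 and 5, Mature 3 to 5, Senile 3 to 5). The label of the molecule runs with it, polyA RNA in the 7 and total RNA in the 8. The 7 and the 8 were also deposited apart and come from different animals, whose sex nearly follows the version and is not in the labels. Version, molecule label, deposit and animals cannot be told apart, and "version" below stands for all of these. Depth was higher in most of the 8 but overlapped, with a median of 1461 to 3068 UMIs per barcode in the 7 and of 2268 to 5611 in the 8. Libraries shared at most 30 barcodes. Senile 3 and Infancy 5 stood apart in the members' level, and the main counts and medians of whole retinas are given without them too.

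Not every subunit could be read from these files. Of the 80 members, 24 had 0 UMIs in all 15 retinas, where 3 UMIs would have been 0.00775 CPM (UMIs of a feature per 1000000 UMIs of the sum). These were 7 members of complex I (NDUFA1, NDUFA5, NDUFB9, NDUFC1, NDUFC2, NDUFS5 and NDUFV2), SDHA of complex II, UQCRC2 and UQCRQ of complex III, 6 of complex IV (COX5A, COX6B1, COX7B, COX7B2, COX7C and COX8A) and 8 of complex V (ATP5F1C, ATP5F1E, ATP5MC1, ATP5MC2, ATP5MF, ATP5MG, ATP5PB and ATP5PD). For 14 of the 24 a numbered copy of the same name held UMIs, 262800 in all. SDHA, the flavoprotein that oxidizes succinate, had 33418 UMIs on its copy, ATP5PB, a part of the peripheral stalk of the ATP synthase, had 32453 on 2 copies, and COX5A had 29452 on 3 copies. For 7 of the 24 no numbered copy was listed. A member at 0 was thus not read under its own name, and its level in the retina is not known from that 0.

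Another 11 members had UMIs but too few to be tested, at most 113 over all retinas (COX8B). Among them were the isoforms COX4I2, which is induced in hypoxia in other tissues, with 47 UMIs, and NDUFA4 with 39. COX6A1, the widespread isoform of its subunit, had 5 UMIs under its own name and 48747 on its numbered copy. The remaining 45 members were tested in whole retinas, 26 of complex I, 3 of complex II, 4 of complex III, 5 of complex IV and 7 of complex V, and the least abundant of them, NDUFB5, had 262 UMIs. The members together held 897791 UMIs, which is 0.232% of all UMIs. The top 10 held 48.5% of these, and complex I held 59.1%, complex II 4.63%, complex III 5.62%, complex IV 11.8% and complex V 18.8%. A nucleus held few of them, with a median of 4 to 10 member UMIs per nucleus over the retinas, and 94.6% to 99.9% of nuclei held at least 1.

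The summed level of the members in whole retinas did not order the stages. It was 2662, 2943, 2775, 2193 and 1312 CPM in Infancy 1 to 5 (mean 2377 ± 657, SD, n = 5). In Mature 1 to 5 it was 2009, 2511, 1543, 2178 and 1648 CPM (1978 ± 395, SD, n = 5). In Senile 1 to 5 it was 2238, 2918, 5195, 2309 and 2853 CPM (3103 ± 1209, SD, n = 5). The ranges of all 3 stages overlapped, Senile 3 stood far above the rest and Infancy 5 below. Between the retinas of 5.0.1 (2579 ± 351 CPM, n = 7) and of 7.0.1 (2404 ± 1231 CPM, n = 8) the means were close, while the spread was wider in 7.0.1, which holds both extremes. In such sums over a whole retina, a change in the makeup of cell types, fewer cells of a type and less RNA per cell cannot be told apart.

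**Figure D1:**
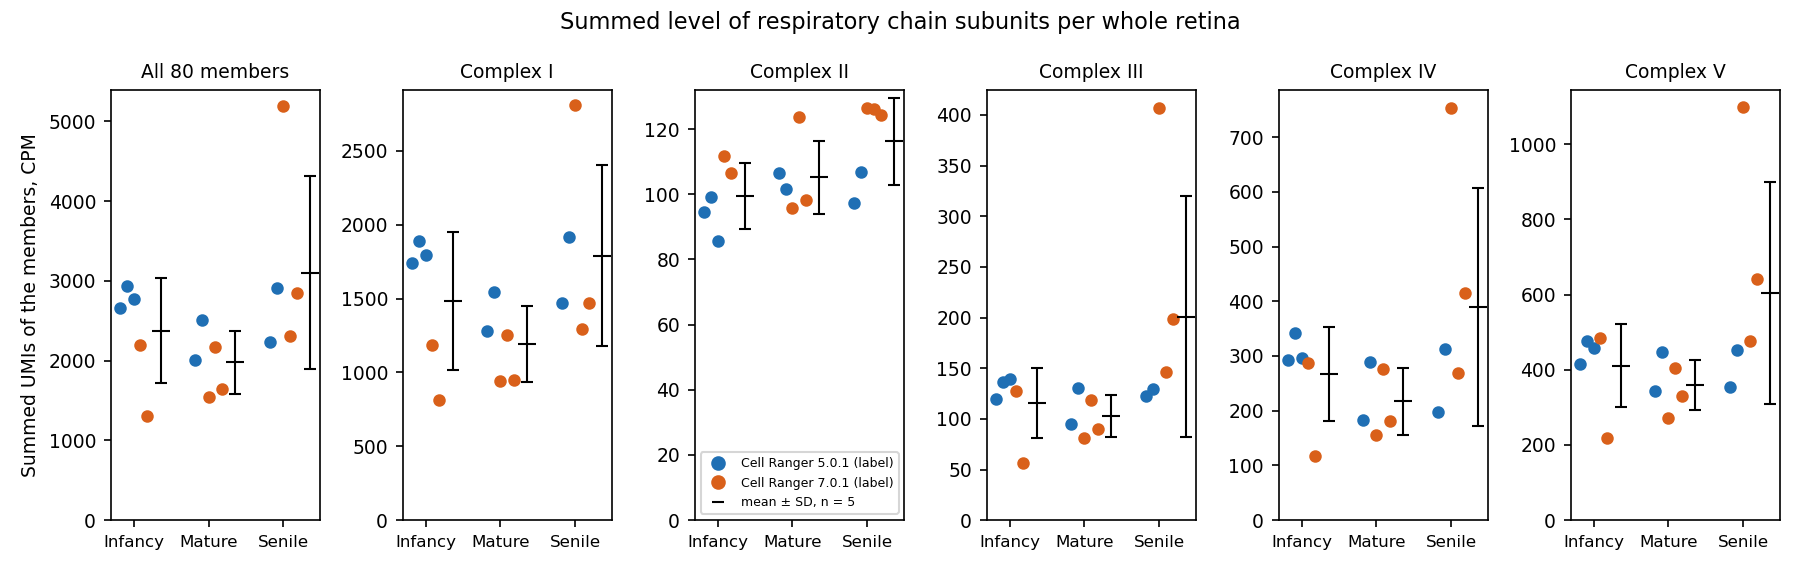
Summed level of the members in CPM for each retina, for all members and for each complex in its own panel, by stage on the x axis and with each point a retina, coloured by the Cell Ranger version of the labels, and black bars giving the mean ± SD of a stage. Senile 3 (5195 CPM) and Infancy 5 (1312 CPM) are the extremes for all members, while complex II keeps every retina between 85.7 and 127 CPM.

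The complexes did not spread alike over the retinas. Complex II, the only one with no subunit from mitochondrial DNA and an enzyme of the citric acid cycle as well, ran from 85.7 CPM (Infancy 3) to 127 CPM (Senile 3), a ratio of 1.48. Its level in Senile 3 was 1.10 times the median of the other Senile retinas. Complex III ran from 56.2 CPM in Infancy 5 to 407 CPM in Senile 3, a ratio of 7.23, complex IV from 118 to 753 CPM in the same retinas, a ratio of 6.40, and complex V from 220 to 1099 CPM, a ratio of 5.0. Complex I had a ratio of 3.46. With Senile 3 and Infancy 5 left out, the ratios were 2.04, 1.47, 2.46, 2.67 and 2.36 for complexes I to V, so that complex II still had the narrowest range. The narrow range rests on the sum of the 3 members SDHB, SDHC and SDHD, as SDHA was read only on its copy. Within it SDHB, at 34.5 to 76.1 CPM over the retinas, was higher in 7.0.1, and SDHD, at 10.1 to 22.6 CPM, lower. Narrow ranges were also found in single members of another complex, such as NDUFS1 of complex I at 60.8 to 83.8 CPM.

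Other gene lists gave a yardstick for this spread. The ratio of the highest to the lowest retina was 4.26 for the numbered copies of the members and 4.19 for 78 cytosolic ribosomal proteins, beside 3.96 for the members. Without Senile 3 and Infancy 5 these ratios were 2.04, 3.15 and 1.91, so that the members then spread less than the ribosomal proteins. With all retinas the ratio was 1.61 for the assembly factors of the complexes, 1.43 for the citric acid cycle, 1.56 for mitochondrial ribosomal proteins and 1.81 for glycolysis. In Senile 3 the cytosolic ribosomal proteins stood at 2.78 times the median of the other Senile retinas, beside 2.01 for the members. Whether the members and the ribosomal proteins share a source of this spread was not tested.

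Senile 3 had the highest level of 31 of the 45 tested members, and Infancy 5 the lowest of 26. In Senile 3 the members held 3942 CPM in nuclei that fell into a cell class by the markers and 6686 CPM in the others, with ribosomal proteins at 1389 and 2681 CPM. In the other 14 retinas the members differed less between those sets, for example 2826 and 2890 CPM in Senile 5. The level also varied with depth within some libraries. The nuclei of a library were split by UMIs into 4 bins of equal size. From the shallowest to the deepest bin the members went from 4660 to 2373 CPM in Senile 5 and from 3492 to 1941 CPM in Infancy 4, but from 2753 to 2647 CPM in Infancy 1. In Senile 3 the 4 bins held 6821, 4412, 5112 and 5223 CPM, so that only the shallowest stood above the others. The part of depth and of ribosomal protein RNA in the members' level was not tested.

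In whole retinas no member passed the test between stages. Members were tested with edgeR's quasi-likelihood test in a fit over all 27953 features with stage and version, and a feature was called at an adjusted p under 0.05 (Benjamini-Hochberg over all features). For Senile against Infancy, 0 of 45 members were called by edgeR and 0 by DESeq2, where 1.61% of all features were called by edgeR and 2.77% by DESeq2, and 3 members (5 by DESeq2) had an unadjusted p under 0.05. For Mature against Infancy, 0 were called by both tools beside 0.984% of all features by edgeR and 2.49% by DESeq2, and 1 (NDUFB5, by edgeR) had an unadjusted p under 0.05. For Senile against Mature, 0 were called by both tools beside 0.00358% of all features by edgeR, which is 1 feature, and 0.651% by DESeq2. Here 18 members by edgeR and 23 by DESeq2 had an unadjusted p under 0.05. Over all 27953 features, 3014, 3390 and 2735 had an unadjusted p under 0.05 by edgeR in these 3 comparisons. By DESeq2 they were 3304, 3786 and 3132.

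The members leaned one way without passing the test. Their median log2 difference was 0.36 for Senile against Infancy, with 42 of 45 above 0, beside a median of -0.01 over all features. For Mature against Infancy it was -0.15, with 13 of 45 above 0, beside -0.02, and for Senile against Mature 0.59, with 38 of 45 above 0, beside 0.03. Single retinas moved these medians. With each retina left out in turn they ran from 0.13 to 0.51 (Senile against Infancy), from -0.31 to -0.07 (Mature against Infancy) and from 0.31 to 0.71 (Senile against Mature), the upper ends being without Senile 1, Infancy 2 and Senile 1, and 0 to 8, 1 to 6 and 4 to 29 members had an unadjusted p under 0.05. The 29 members, for Senile against Mature without Senile 1, stood beside 3238 of 29119 features. Without Senile 3 the medians were 0.13, -0.10 and 0.31. For Senile against Mature, 4 members in place of 18 then had an unadjusted p under 0.05, beside 3063 of 29136 features. Without Infancy 5 the medians were 0.16, -0.31 and 0.58, so that the median for Mature against Infancy lay farther from 0. In that comparison 6 members in place of 1 had an unadjusted p under 0.05, beside 3475 of 28199 features.

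Within a version the lean was not the same. Among the 7 retinas of 5.0.1 the median for Senile against Infancy was -0.17, with 14 of 45 members above 0, and among the 8 retinas of 7.0.1 it was 0.82, with 42 of 48 above 0. For Senile against Mature the medians were 0.04 and 0.76, and for Mature against Infancy -0.16 and 0.05. The difference between versions in the Senile against Infancy contrast was tested as an interaction, chosen after the data had been seen. It called 0 of 45 members and 3 of 27953 features. An unadjusted p under 0.05 was found for 23 members, beside 2617 of all features. With 2 Infancy and 3 Senile retinas in 7.0.1, Infancy 5 and Senile 3 weigh heavily on that side.

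**Figure D2:**
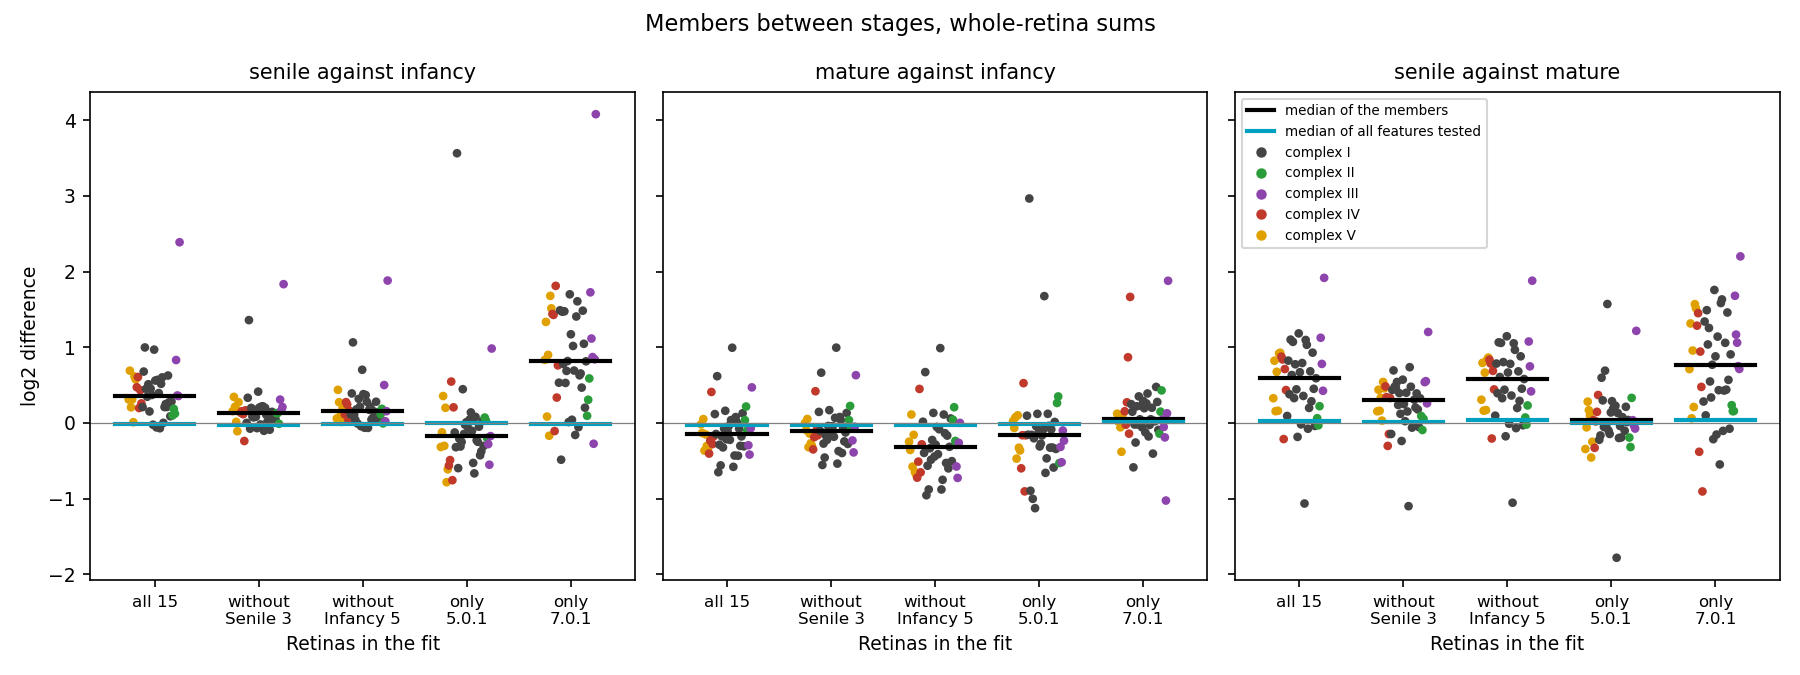
Log2 difference of each tested member between stages (y axis), in one panel per pair of stages, fitted to all 15 retinas, without Senile 3, without Infancy 5, and within each version (x axis). The black bars give the median over members and the blue bars that over all features tested, with points coloured by complex. The median over members for Senile against Infancy was 0.36 in all retinas, -0.17 within 5.0.1 and 0.82 within 7.0.1.

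Complex I, the NADH dehydrogenase, had the most tested members, and they differed in how they ran over the retinas. NDUFA13, an accessory subunit also known as GRIM-19, held 311, 344, 315, 111 and 50.2 CPM in Infancy 1 to 5, 140, 209, 63.1, 99.4 and 66.3 CPM in Mature 1 to 5, and 162, 304, 417, 94.2 and 154 CPM in Senile 1 to 5. Within each stage except Senile, every 5.0.1 retina was above every 7.0.1 retina. Senile against Mature gave a log2 difference of 1.10 ± 0.42 (SE, adjusted p = 0.448, edgeR), which was 0.48 ± 0.29 without Senile 3. NDUFS7, which carries the last iron-sulfur cluster before ubiquinone, held 276, 308, 225, 77.5 and 102 CPM in Infancy, 162, 199, 114, 141 and 106 CPM in Mature, and 170, 284, 266, 168 and 118 CPM in Senile retinas. NDUFS7 had its lowest values in the 7.0.1 retinas of Infancy.

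NDUFS4, an accessory subunit whose loss causes Leigh syndrome, was far steadier, with 125, 135, 121, 120 and 96.5 CPM in Infancy, 124, 118, 106, 104 and 107 CPM in Mature, and 141, 128, 167, 134 and 145 CPM in Senile retinas. All 5 Senile values of NDUFS4 were above all 5 Mature values, by a log2 difference of 0.29 ± 0.11 (SE, adjusted p = 0.448, edgeR), but the difference was 0.04 ± 0.12 within 5.0.1. NDUFS1, the large subunit of the NADH-oxidizing arm, was level over the stages, from 60.8 to 83.8 CPM in the 15 retinas. NDUFB5, an accessory subunit of the membrane arm at under 1.5 CPM in every retina, was the only member with an unadjusted p under 0.05 for Mature against Infancy. NDUFB5 held 0.392, 0.447, 0.465, 0.672 and 0.471 CPM in Infancy, 1.41, 1.42, 0.573, 0.81 and 0.79 CPM in Mature, and 0.524, 0.34, 0.512, 0.333 and 0.662 CPM in Senile retinas. Its log2 difference was 0.99 ± 0.31 (adjusted p = 0.21) for Mature against Infancy and -1.06 ± 0.33 (adjusted p = 0.374) for Senile against Mature in edgeR.

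Complex II passes electrons from succinate to ubiquinone. SDHB, its iron-sulfur subunit, held 38.1, 40.8, 34.5, 68 and 63.5 CPM in Infancy, 49.2, 42.1, 49.3, 72.3 and 50.3 CPM in Mature, and 40.4, 46.6, 61.7, 76.1 and 71.3 CPM in Senile retinas. SDHC, a membrane anchor, held 28.8 to 36.4 CPM in Infancy, 34.2 to 43.6 CPM in Mature and 36 to 44.3 CPM in Senile retinas. The other anchor, SDHD, held 10.1 to 22.4, 11.6 to 16.5 and 11.5 to 22.6 CPM. SDHB was higher in 7.0.1 and SDHD lower, whereas the log2 differences of SDHB, SDHC and SDHD for Senile against Infancy were 0.10 ± 0.14, 0.19 ± 0.12 and 0.12 ± 0.21 (SE), none of them called.

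Complex III, the cytochrome bc1 complex, was where Senile 3 stood out most. UQCR10, a small accessory subunit, held 66.1, 75.4, 78.3, 58.4 and 22.4 CPM in Infancy, 50.5, 67.7, 34.2, 47.7 and 38.1 CPM in Mature, and 58.4, 73.7, 241, 77.8 and 78.5 CPM in Senile retinas. UQCRFS1, the Rieske iron-sulfur protein, held 44.3, 52.8, 51.8, 53.1 and 28.6 CPM, then 38.9, 54.1, 36.1, 49.7 and 42.8 CPM, then 49.3, 47.1, 90.4, 50.3 and 77.9 CPM in the same order. The values of both genes overlapped between all stages.

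UQCRH, the hinge protein next to cytochrome c1, had the lowest adjusted p of all members for Senile against Infancy, and its values were uneven. UQCRH held 3.53, 3.75, 3.3, 2.21 and 0.912 CPM in Infancy, 2.42, 3.63, 4.08, 11.4 and 1.17 CPM in Mature, and 11.6, 3.65, 51, 1.83 and 26.8 CPM in Senile retinas. The log2 difference was 2.39 ± 0.87 (SE, adjusted p = 0.296, edgeR), and 1.83 ± 0.77 without Senile 3. Senile 3, Senile 5 and Senile 1 were high, while Senile 2 and Senile 4 lay within the range of Infancy. UQCRH had 3153 UMIs under its own name against 9201 on its numbered copy, and the part of that copy in its level was not tested. UQCR11, a further small subunit, held 3.8 to 12.8 CPM in Infancy, 2.26 to 9.48 CPM in Mature and 2.57 to 23.4 CPM in Senile retinas.

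Complex IV reduces oxygen to water. COX4I1, the widespread isoform of its largest nuclear subunit, held 175, 199, 169, 146 and 51.3 CPM in Infancy, 86, 153, 80.2, 148 and 87.9 CPM in Mature, and 83.5, 183, 413, 145 and 241 CPM in Senile retinas. COX5B, a peripheral subunit on the matrix side, held 72.5, 95.3, 79.4, 84.8 and 27.8 CPM, then 53.4, 94.3, 36.2, 74.4 and 48.7 CPM, then 54.5, 73.7, 255, 82 and 114 CPM. Both genes were lowest in Infancy 5, followed by Mature 3, and highest in Senile 3. COX7A2L, which joins complexes III and IV into supercomplexes, moved in a narrower range of 28.8 to 44.5 CPM in Infancy, 28.8 to 37.2 CPM in Mature and 31.1 to 56.9 CPM in Senile retinas, with a log2 difference of 0.44 ± 0.16 for Senile against Mature (SE, adjusted p = 0.434, edgeR) and 0.33 ± 0.15 without Senile 3.

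The isoforms known from heart and skeletal muscle were read at low levels. COX6A2 held 4.34 to 8.09 CPM in Infancy, 7.11 to 11.1 CPM in Mature and 5.1 to 10.5 CPM in Senile retinas, and COX7A1 held 1.91 to 5.94, 1.63 to 7.7 and 2.67 to 18.4 CPM. For COX7A1 the 18.4 CPM was Senile 3, and the next Senile value was 4.76 CPM. COX7A2 and COX6B2 were not analysed here.

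Of complex V, the members with the most UMIs were ATP5IF1, ATP5ME and ATP5F1B. ATP5IF1, which stops the synthase from running backwards, held 105, 121, 104, 110 and 49.3 CPM in Infancy, 89.5, 122, 69.5, 85.2 and 77.7 CPM in Mature, and 88.6, 132, 314, 129 and 155 CPM in Senile retinas. ATP5ME, a subunit of the membrane part, held 49.6 to 91.5 CPM in Infancy, 51.1 to 80.5 CPM in Mature and 58.8 to 204 CPM in Senile retinas. ATP5F1B, the catalytic beta subunit, held 55.6, 57.2, 61.4, 90.2 and 35.6 CPM in Infancy, 52.3, 66.6, 54.8, 86.3 and 56 CPM in Mature, and 45, 57.1, 137, 78.3 and 120 CPM in Senile retinas. For Senile against Infancy the log2 difference of ATP5IF1 was 0.69 ± 0.33 (SE, adjusted p = 0.476, edgeR), but -0.12 ± 0.21 within 5.0.1 and 1.34 ± 0.44 within 7.0.1.

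**Figure D3:**
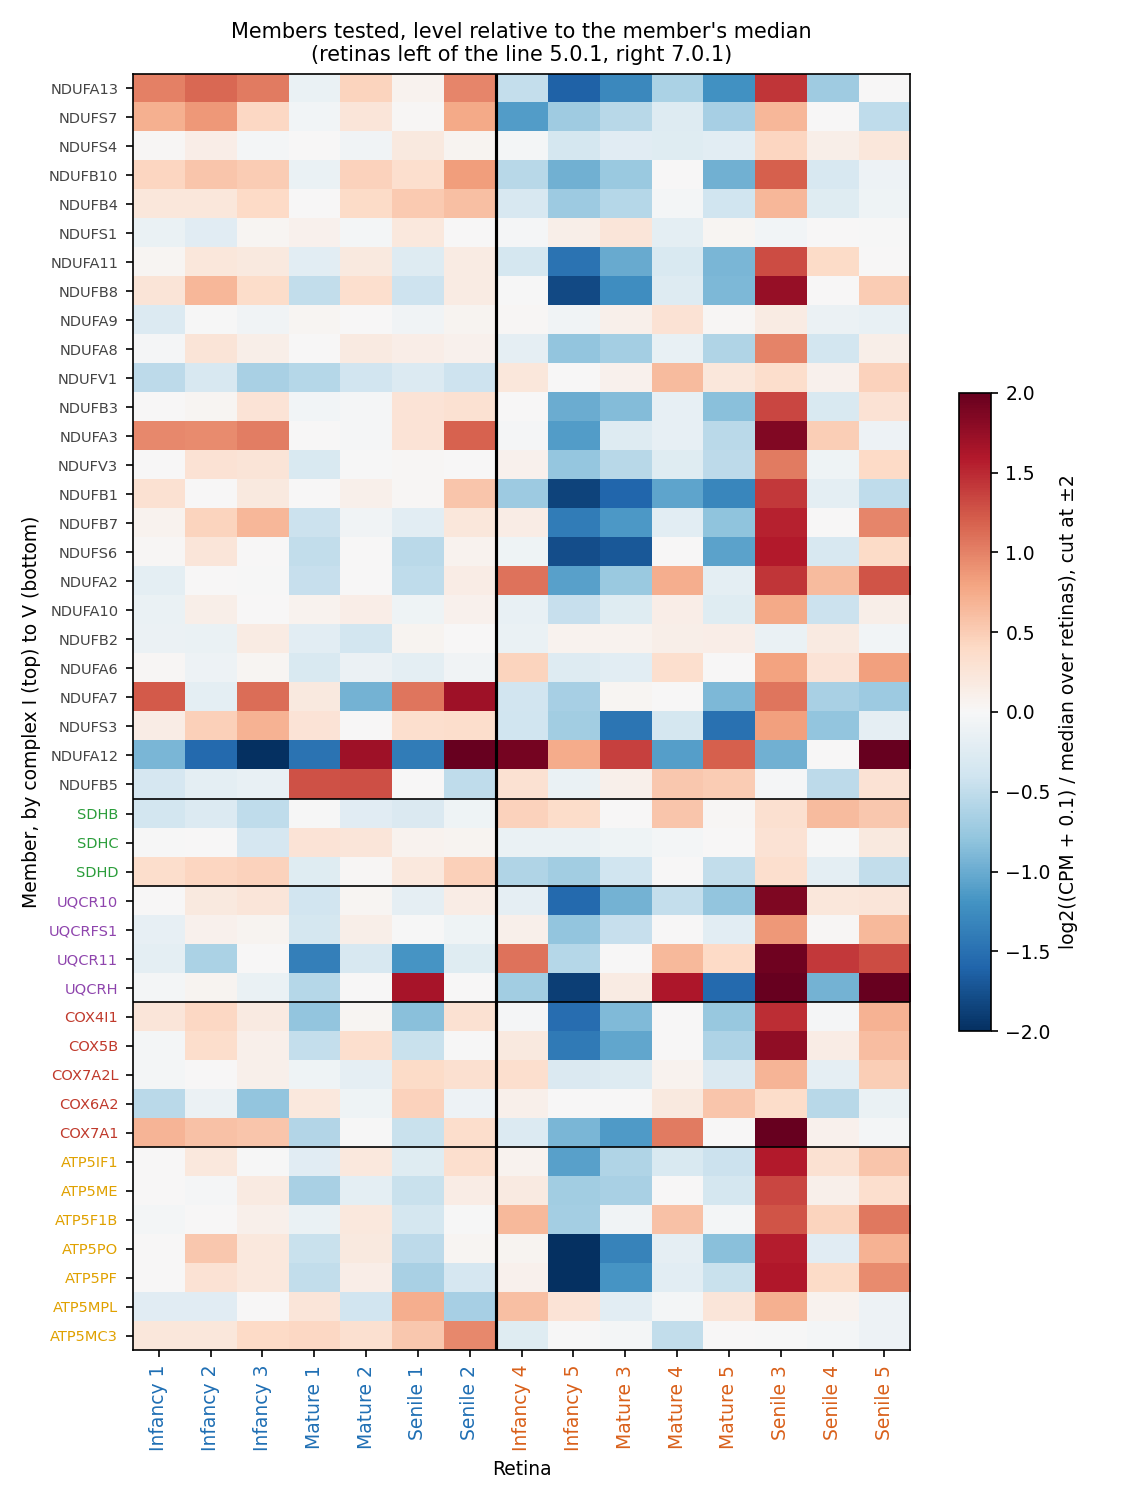
Level of the tested members (rows, by complex, 1 member not drawn) in each retina (columns, by version and stage), as the log2 ratio to the member's own median over the retinas. Senile 3 is the highest retina for 31 of all 45 tested members and Infancy 5 the lowest for 26.

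The Cell Ranger version gave the only calls among members in whole retinas. Of 45 members, 3 were higher and 9 lower in 7.0.1, beside 35.6% of all features called in either direction, 19.1% higher and 16.5% lower. DESeq2 gave the same counts of 3 and 9, beside 39.7% of all features called. With the sums thinned to equal totals, 3 were higher and 8 lower of 44 members, beside 32.6% of all features called. With the replicate number as a block, which nearly follows the version, 0 of 45 members and 0 of all features were called. The share of members called was thus no larger than the background. The median log2 difference of the members was -0.20, beside 0.02 over all features. Without Senile 3, 3 were higher and 16 lower, beside 22% and 20% of all features, and the median was -0.33. Without Infancy 5, 6 were higher and 5 lower, beside 17.3% and 11.3% of all features. The median of the members was then 0.00415, beside 0.06 over all features. Thus the members' lean towards lower values in 7.0.1 was smaller without Infancy 5.

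NDUFV1, the flavin-carrying subunit of complex I that takes electrons from NADH, held 30.6 to 40 CPM in 5.0.1 and 48.1 to 75 CPM in 7.0.1, with no overlap, a log2 difference of 0.58 ± 0.11 (SE, adjusted p = 0.00134, edgeR with Benjamini-Hochberg). SDHB held 34.5 to 49.2 CPM in 5.0.1 and 49.3 to 76.1 CPM in 7.0.1 (0.49 ± 0.12, adjusted p = 0.00595). UQCR11 was higher as well (1.24 ± 0.33, adjusted p = 0.00998). In the other direction ATP5MC3, 1 of the genes for the rotating c-ring of the synthase, held 23.3 to 39 CPM in 5.0.1 and 14.2 to 20 CPM in 7.0.1, with no overlap, a log2 difference of -0.70 ± 0.11 (adjusted p = 0.000693). Of the 45 tested members only NDUFV1, SDHB and ATP5MC3 separated the versions without overlap. The matching count over all features is not given here, so this count has no background.

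The other lower members were subunits of complex I, apart from SDHD. NDUFB4 (-0.69 ± 0.15, adjusted p = 0.00314), NDUFS7 (-0.93 ± 0.23, adjusted p = 0.00714), SDHD (-0.67 ± 0.17, adjusted p = 0.0086) and NDUFS3 (-0.93 ± 0.26, adjusted p = 0.0127) were the clearest in the same edgeR fit. NDUFA13, NDUFB10, NDUFB1 and NDUFA7 followed with differences of -1.22 ± 0.37, -0.83 ± 0.26, -1.0 ± 0.34 and -1.01 ± 0.36 and adjusted p from 0.0193 to 0.0402. These were the least firm calls. NDUFA13 and NDUFB10 kept theirs under 20 of 23 alternatives and lost them without Infancy 5, without Mature 2 and with the replicate block. NDUFB1 and NDUFA7 kept theirs under 13 of 23, with NDUFB1 between -1.28 and -0.36. NDUFB1 lost its call when Infancy 3, 4 or 5, Mature 1, 2, 3 or 5 or Senile 4 was left out, with thinned sums and with the block, and NDUFA7 when Infancy 1, 3, 4 or 5, Mature 1 or 5 or Senile 2, 4 or 5 was left out and with the block. Members of 1 complex thus moved in both directions between versions, NDUFV1 up beside NDUFS7 and NDUFS3 down in complex I, and SDHB up beside SDHD down in complex II.

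**Figure D4:**
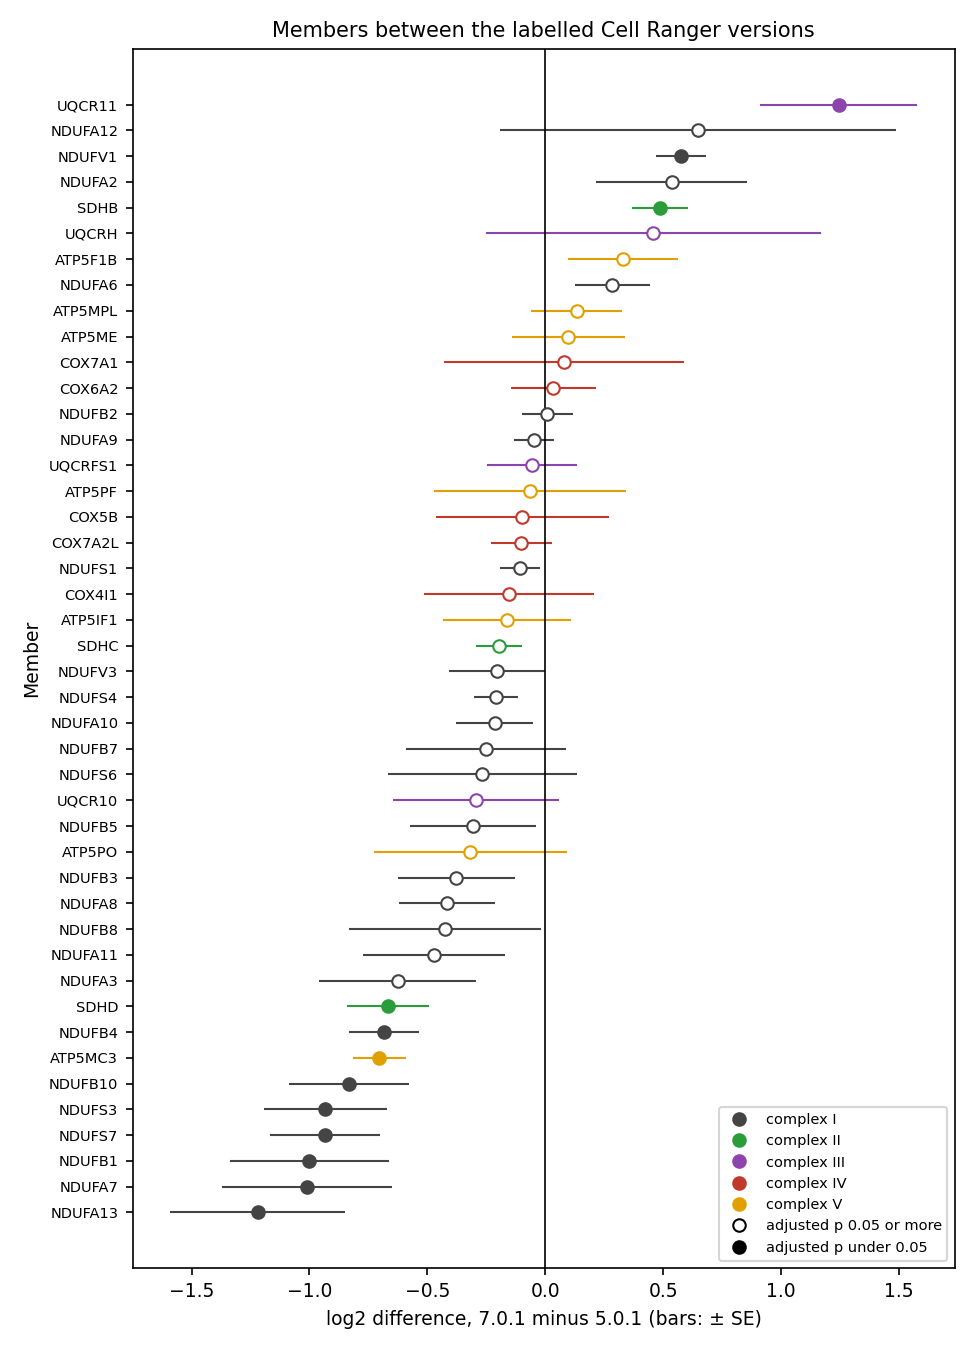
Log2 difference of the tested members between Cell Ranger versions, 7.0.1 minus 5.0.1 (x axis, bars ± SE), with members in order of that difference on the y axis, coloured by complex, and filled points for an adjusted p under 0.05. The 3 filled points on the right are UQCR11, NDUFV1 and SDHB, and the 9 on the left run from SDHD (-0.67) to NDUFA13 (-1.22), while 1 tested member is not drawn.

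Genes of related lists, some of them outside the chain, had no calls between stages either. Over 7 related lists (assembly factors, electron carriers and exchange, biogenesis regulators, citric acid cycle, glycolysis, and cytosolic and mitochondrial ribosomal proteins) 0 of 143 tested genes were called by edgeR in any stage comparison, where 1.61%, 0.984% and 0.00358% of all features were called for Senile against Infancy, Mature against Infancy and Senile against Mature. An unadjusted p under 0.05 was found for 8 of them for Senile against Infancy, 11 for Mature against Infancy and 17 for Senile against Mature. Over all 27953 features it was found for 3014, 3390 and 2735 in the same order. The median of the 34 tested assembly factors for Senile against Mature was 0.13, beside the 0.59 of the members. Between versions 36 of the 143 (25.2%) were called, 15 higher and 21 lower, which is a smaller share than the 35.6% of all features. Of the 34 assembly factors 1 was higher (TTC19, 0.39 ± 0.11) and 10 lower, among them ACAD9, which helps to build complex I (-2.13 ± 0.32). In the citric acid cycle 1 of 12 was higher, the mitochondrial isocitrate dehydrogenase IDH2 (1.40 ± 0.19), and 2 lower, and the adenine nucleotide carrier SLC25A4, which exports ATP from the matrix, was higher (0.66 ± 0.21). Of 12 biogenesis regulators 2 were lower, TFB2M and POLRMT, both of which transcribe mitochondrial DNA. Of 24 tested cytosolic ribosomal proteins 6 were higher and 2 lower, of 51 mitochondrial ribosomal proteins 5 and 5, and of 6 glycolytic genes 1 was higher, HK2. These lists held 78, 75 and 17 genes, and those below the filter on low counts were not tested. The 13 subunits encoded in mitochondrial DNA were not analysed here.

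Differences between versions were also found within cell classes. Nuclei were placed in 9 classes by marker genes, and 65627 of 111825 (58.7%) could be placed, among them 15042 cones, 1121 rods, 16953 bipolar cells, 1140 horizontal cells, 14669 amacrine cells, 5020 ganglion cells, 8338 Müller cells, 2531 astrocytes and 813 microglia. The cone markers summed to 9326 CPM in cones and to 139 to 625 CPM in ganglion cells and rods. CNGA3 and CNGB3, the channel subunits of cones, had 0 UMIs in the gated cones, so this class rests on its other markers. In cones 3 members were higher and 7 lower in 7.0.1 (26.8% of features called), in bipolar cells 3 and 9 (21.5%), in amacrine cells 2 and 12 (27.5%), in ganglion cells 4 and 5 (19.7%) and in Müller cells 4 and 2 (22.2%). In astrocytes 1 was higher and 5 lower (34.3%), in horizontal cells 1 and 1 (11.5%), in rods 0 and 1 (5.21%) and in microglia 0 and 1 (4.89%). NDUFA13 was lower in 8 of the 9 classes, in all but cones. All 12 members called in whole retinas were called in at least 1 class as well, and 7 further members were called in a class only. The matching counts over all features are not given here, so these counts have no background. The classes are also parts of the same libraries as the whole retinas. NDUFV1 was higher in 6 classes and SDHB in 6, while ATP5MC3 and NDUFB4 were lower in 5 each.

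Between stages, 0 of 301 pairs of a member and a class passed in any of the 3 comparisons by edgeR. The background over the classes was 1.05% of features for Senile against Infancy, 0.733% for Mature against Infancy and 0.00819% for Senile against Mature. An unadjusted p under 0.05 was found for 19, 14 and 80 pairs of a member and a class. The matching count over all features is not given here, so these counts have no background. The medians over members rest on 7 members in microglia, 24 in horizontal cells and 25 in rods, and on 34 to 43 in the other classes. The median log2 difference of the members was -0.01 (horizontal cells) to 0.53 (microglia) for Senile against Infancy. It was -0.43 (horizontal cells) to 0.07 (microglia) for Mature against Infancy, and 0.33 (bipolar cells) to 0.78 (rods) for Senile against Mature. It lay above the median of all features in 9 of 9 classes for both comparisons with Senile, and in 1 of 9 for Mature against Infancy. Without Infancy 5 it lay above in 5 of 9 for Senile against Infancy (medians of -0.23 to 0.32), and without Senile 3 in 7 of 9 (-0.12 to 0.49), while Senile against Mature kept 9 of 9 without either (0.31 to 0.80 and 0.14 to 0.59). These classes share their libraries, so they are not 9 separate observations.

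Without the filter on low counts, 9, 3 and 32 of 456 pairs were called in these 3 comparisons, beside 0.924%, 0.756% and 0.427% of all pairs of a feature and a class in the same fits. All 9 and all 32 were higher in Senile retinas, and all 3 were lower in Mature retinas. UQCRH was higher in Senile than in Infancy retinas in that fit in cones (log2 2.02), amacrine cells (2.20) and ganglion cells (2.08), among others. The 32 for Senile against Mature were spread over more members. NDUFA13 was among them in cones (0.78), rods (1.12), amacrine cells (0.72), ganglion cells (1.15) and Müller cells (0.85).

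Senile 3 did not stand out in every class. The summed members in bipolar cells were 2706, 2937, 2794, 2247 and 1324 CPM in Infancy, 1903, 2570, 1486, 2199 and 1746 CPM in Mature, and 1916, 3066, 2417, 2201 and 3136 CPM in Senile 1 to 5, so that Senile 3 lay within its stage. In ganglion cells they were 2574, 2965, 2772, 1850 and 1342 CPM, then 1917, 2477, 1624, 2076 and 1430 CPM, then 2141, 2684, 5134, 1923 and 1994 CPM. Senile 3 was about as high in ganglion cells as over its whole retina. Infancy 5 was the lowest retina of its stage in all 9 classes.

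Of the 9 classes, cones had the highest median level of the members. Their summed members were 3060, 3194, 3084, 2477 and 1782 CPM in Infancy, 2341, 2829, 1928, 2845 and 2065 CPM in Mature, and 2911, 3244, 4637, 2746 and 3393 CPM in Senile retinas. Müller cells, the radial glia of the retina, held 2057, 2371, 2254, 1962 and 993 CPM, then 1569, 2035, 1224, 1888 and 1377 CPM, then 1608, 2066, 3665, 2229 and 2819 CPM. Cones were above Müller cells in 15 of 15 retinas and above amacrine cells in 15 of 15.

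The order of the other classes was less clear. The median over retinas was 2845 CPM in cones, 2737 CPM in rods, 2514 CPM in microglia, 2247 CPM in bipolar cells, 2162 CPM in astrocytes, 2095 CPM in amacrine cells, 2087 CPM in horizontal cells, 2076 CPM in ganglion cells and 2035 CPM in Müller cells. Ranges over the retinas overlapped widely, for example rods from 1517 to 4440 CPM and amacrine cells from 1229 to 2887 CPM. Within a retina the order was firmer for some classes. Rods were above amacrine cells in 14 of 14 retinas and above Müller cells in 14 of 14. Bipolar cells were above amacrine cells in 13 of 15 and above Müller cells in 13 of 15, and ganglion cells in 10 and 12 of 15. Among the 14 retinas with all 9 classes, cones were highest in 8, microglia in 3, rods in 2 and ganglion cells in 1, and Müller cells were lowest in 9. Rods of Senile 1 were too few to be counted.

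**Figure D5:**
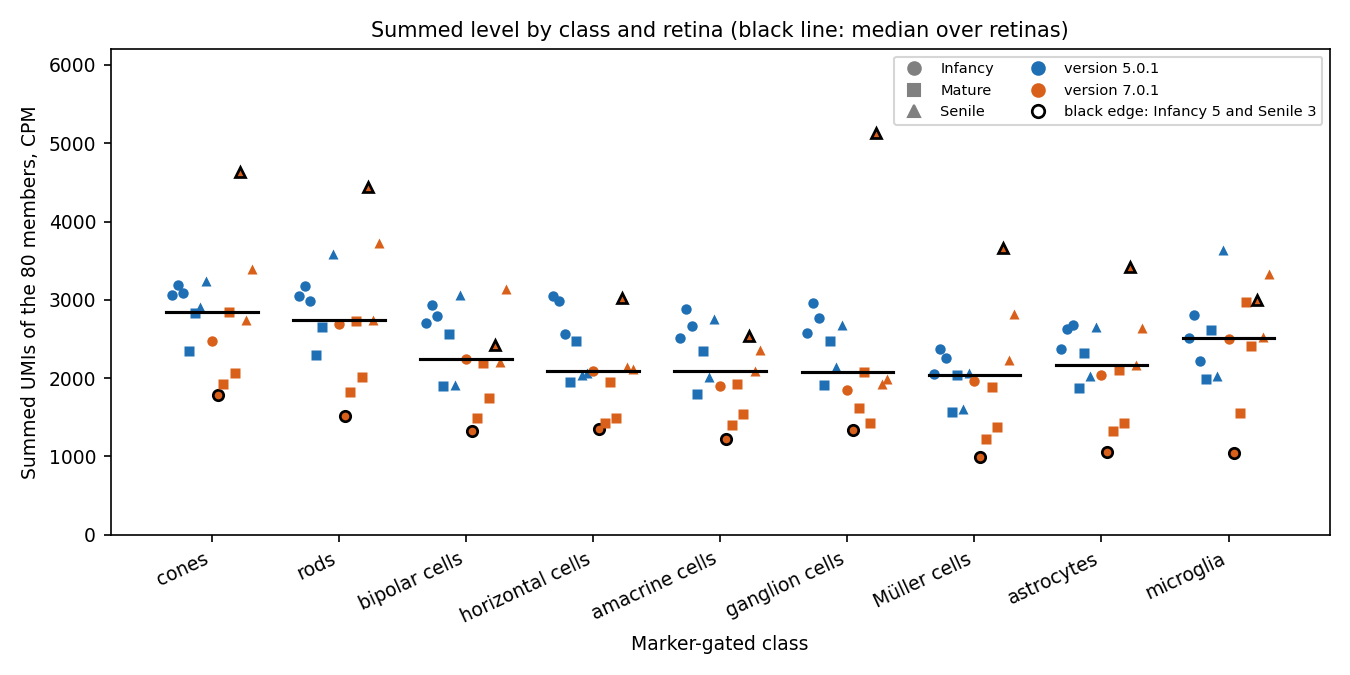
Summed member level in CPM (y axis) in each gated class (x axis), with each point a retina, the stage shown by the shape and the Cell Ranger version by the colour, Infancy 5 and Senile 3 edged in black, and the horizontal line the median. Cones have the highest median (2845 CPM) and Müller cells the lowest (2035 CPM), and the ranges of neighbouring classes overlap.

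The test between classes bore on single members, with each class set against the mean of the others and the retina as a block (edgeR, 14487 features, 43 of them members). Over the 9 classes 143 of 387 pairs of a member and a class were called, beside 57.4% of all pairs of a feature and a class. In cones 34 of 43 members were higher and 0 lower, beside 43.8% of all features higher and 37.7% lower, and 1 class thus took 34 of the 143 calls. The median log2 difference of the members in cones was 0.41, beside 0.06 over all features. With the other scaling of edgeR (RLE) the cone counts were 25 higher and 5 lower (34.5% and 45.5% of features), and the medians 0.21 and -0.14, so the members kept their distance from the median of all features while the counts moved. A stricter marker gate gave 26 and 2 (32.8% and 37.1% of features). Counts in other classes also moved with the scaling, the gate or the retinas used. They are given with the share or number of all features higher and lower in the same fit.

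The members most raised in cones were accessory subunits of complex I. NDUFA7 held 14.3 to 82.4 CPM in cones over the retinas, with a median of 28.5 CPM, and 2.08 to 17.3 CPM in amacrine cells with a median of 5.25 CPM. Its log2 difference was 1.91 ± 0.10 in cones (SE, adjusted p = 1.97e-37, edgeR). NDUFB1 held 27.7 to 150 CPM in cones, with a median of 88.1 CPM, against medians of 20.7 to 37.7 CPM in the other classes (1.60 ± 0.08, adjusted p = 2.11e-37), and NDUFB3 held 38.9 to 123 CPM in cones (1.12 ± 0.07, adjusted p = 2.59e-31). All 3 kept direction and call in cones under each of 25 alternatives.

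NDUFA7 was the member that varied most broadly between classes, being called in 9 of 9. It was higher in cones, rods (0.76 ± 0.23), bipolar cells (0.95 ± 0.12) and Müller cells (0.76 ± 0.13), and lower in horizontal cells (-0.73 ± 0.27), amacrine cells (-1.02 ± 0.14), ganglion cells (-0.55 ± 0.15), astrocytes (-0.67 ± 0.21) and microglia (-1.41 ± 0.40). ATP5IF1 was called in 8 classes, higher in 3 (among them rods at 0.71 ± 0.10 and ganglion cells at 0.37 ± 0.08) and lower in 5. NDUFS3 was not called in any class against the others.

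In rods 8 members were higher and 3 lower, beside 19.8% of features higher and 30% lower, with RLE scaling 14 and 0 (22.7% and 25.5%), with the stricter gate 4 and 4 (15.9% and 31.3%), and without the filter on low counts 2 and 7 of 56 (5.23% and 10%). The median of the members in rods lay 0.23 above that of all features, and 0.13 to 0.27 above it in these 3 fits. COX7A2L was higher in rods (0.61 ± 0.11) and in bipolar cells (0.36 ± 0.07), and lower in amacrine cells (-0.57 ± 0.07) and astrocytes (-0.41 ± 0.10). Bipolar cells had 8 higher and 3 lower (30.8% of features higher and 32% lower), 3 and 8 with RLE scaling (24.6% and 40.4%), and 24 and 1 with the stricter gate (36% and 19.3%), while the median of the members stayed 0.09 to 0.12 above that of all features in these 3 fits. With 1 retina left out 8 to 18 were higher and 2 or 3 lower. The counts were 18 and 3 without Senile 3 (5053 and 4261 of 14751 features). NDUFA13 was higher in bipolar cells (0.45 ± 0.08) and COX6A2 lower (-0.64 ± 0.15) under all 25 alternatives.

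Amacrine cells, the inhibitory interneurons of the inner retina, had 4 members higher and 18 lower, beside 35.4% of features higher and 28.9% lower, and 10 and 5 with the stricter gate (43.8% and 16.1%). The median of the members in amacrine cells lay below that of all features by a log2 difference of -0.16 and, with the stricter gate, of -0.14. With 1 retina left out the counts ran from 4 and 11 without Mature 5 (5592 and 3610 of 14409 features) to 4 and 21 without Senile 4 (4872 and 4340 of 14410). Within 5.0.1 they were 5 and 9 (4898 and 2352 of 14652 features), and within 7.0.1 2 and 25 (4373 and 3868 of 14162). ATP5MC3 was higher in amacrine cells, with 25.1 to 46.5 CPM over the retinas against medians of 10.3 to 22.6 CPM in the other classes (1.07 ± 0.09, adjusted p = 4.71e-22, edgeR). ATP5MPL, a small subunit of the synthase, was higher too (0.50 ± 0.07). Müller cells had 2 higher and 14 lower (32.8% of features higher and 28.8% lower), and 4 and 8 with the stricter gate (37.2% and 17.3%). In Müller cells ATP5MC3 (-0.74 ± 0.12) and NDUFA9 (-0.62 ± 0.07) were lower and the muscle isoform COX6A2 higher (0.54 ± 0.15).

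Ganglion cells, whose axons form the optic nerve, had 7 members higher and 8 lower (36.4% of features higher and 29.6% lower). NDUFB4 was higher in ganglion cells (0.56 ± 0.06, adjusted p = 1.84e-15, edgeR) and NDUFA9 as well (0.29 ± 0.07), while COX6A2 (-0.58 ± 0.17) and NDUFB2 (-0.46 ± 0.10) were lower. The counts in ganglion cells were 16 and 4 with the stricter gate (43.3% and 18.1%), where the median of the members was 0.17 beside 0.19 over all features. They were 11 and 7 without Senile 2 (5719 and 3885 of 14781 features) and 5 and 10 without Senile 4 (4768 and 4843 of 14410). Within 5.0.1 they were 12 and 4 (5529 and 2845 of 14652 features), and within 7.0.1 2 and 4 (4104 and 3198 of 14162). Horizontal cells had 1 member higher and 4 lower (18.8% of features higher and 24.1% lower), but 0 and 2 without Infancy 4, 1 and 2 without Mature 2 or without Senile 5, and 0 and 7 without Mature 5 (17.7% to 19.3% and 22% to 25.1% of features with 1 retina left out), with ATP5IF1 lower by a log2 difference of -0.48 ± 0.12. The higher member, COX4I1 (0.24 ± 0.10), kept its call under 10 of 25 alternatives. Markers of bipolar cells summed to 1453 CPM and those of amacrine cells to 1032 CPM in the gated horizontal cells, beside 1698 CPM for their own, and the part of those cells in the values was not tested.

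Among the glia, astrocytes had 3 members higher and 9 lower (28.7% of features higher and 16.6% lower), among the latter SDHB (-0.39 ± 0.09), and 1 and 17 with the stricter gate (22.7% and 16.2%). With 1 retina left out 1 to 3 were higher and 8 to 12 lower, with 1 and 12 without Senile 4 (3853 and 2721 of 14410 features). Within 5.0.1 the counts were 3 and 3 (3977 and 1399 of 14652 features), and within 7.0.1 1 and 8 (3005 and 1828 of 14162). Microglia had 1 higher and 16 lower (15.3% of features higher and 27% lower), and 2 and 6 with RLE scaling (19% and 18.2%). The median log2 difference of the members in microglia was -0.28, beside -0.29 over all features, so in this fit the 2 medians were close. Without the filter on low counts 1 was higher and 26 lower of 56 members (3179 and 5949 of 61567 features). The medians were then -0.56 for the members and -0.41 over all features. Within 5.0.1 they were -0.50 and -0.41, and within 7.0.1 -0.18 and -0.21. The summed CPM of microglia given above are without the scaling of this test. NDUFS4 was lower in microglia (-0.69 ± 0.09).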

How the data were processed

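Nuclei of 15 TS retinas were analysed from the matrices the authors deposited, 1 per retina, which hold raw UMI counts per feature and barcode as Cell Ranger wrote them, without normalization, on the genome TS_3.0. The labels give version 5.0.1 for 7 libraries and 7.0.1 for 8, the file headers give 6.1.2 for the former and 7.0.1 for the latter, and whether intronic reads were counted is not given in the sources used here. Libraries held 13429873 to 58734300 UMIs. A member's level is given as CPM, the UMIs of a feature per 1000000 UMIs of the sum.

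Barcodes with 200 to 6000 genes and under 5% mitochondrial UMIs were kept (119765 of 120437), and 7940 doublets, called by their share of simulated doublet neighbours at 8 per 1000 for every 1000 nuclei, were removed. A nucleus was placed in a class where at least 2 of its markers were detected and its marker score led the next class by 0.3 or more, and 45709 nuclei were not placed. Within 0.1 of that margin lay 371 cones inside and 378 outside, but 3127 and 3466 bipolar cells, 3006 and 3317 amacrine cells and 475 and 517 astrocytes. The single feature LINC-FRMD8-1 took 146028 CPM (mean of Senile) to 181052 CPM (mean of Infancy) of the totals.

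Counts were summed per retina, or per retina and class from 10 nuclei on, and tested with edgeR 4.0.16 in R 4.3.3 (TMM, filterByExpr, quasi-likelihood test, stage and version in the model, Benjamini-Hochberg over all features tested). Classes were compared with the retina as a block. Sums were made in Python 3.11.15 (scikit-learn 1.9.0, pandas 2.3.3, scipy 1.17.1, numpy 2.4.6). The procedure was tested on simulated data. Sums over members got no test. The values of 1 member by itself are not reported here.

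Alternatives were DESeq2 1.42.0, RLE factors, no filter, stage alone, sex in place of version, a replicate block, each version alone, each retina left out, thinned sums, LINC-FRMD8-1 left out, doublets kept, a limit of 1% mitochondrial UMIs, and looser and stricter gates. Named in the text are members called between stages, the 3 with most UMIs per complex, tissue isoforms, at most 5 per direction between versions and at most 3 per direction and class. NDUFB5, UQCRH, NDUFS1, NDUFA13, NDUFB10, NDUFB1, NDUFA7, NDUFS3 and the members read on numbered copies were in places named after their values had been seen. The members and the gene lists were chosen with earlier results of these data known.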

Additional observations from a re-analysis of the deposited data

Results flagged for a closer look

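Groups of 4 or 5 retinas of a stage were examined for summed levels, 45 groups in all. These levels were of all members or of 1 complex in whole retinas, or of all members in a class. The groups share libraries and members, so they are not 45 separate observations. Dixon's criterion, which flags about 1 in 20 single groups by chance, marked a retina far from the others of its stage in 7 groups. Senile 3 was high in 4 of them. It held 5195 CPM of all members in the whole retina, where the other Senile retinas held 2238 to 2918 CPM, and 407 CPM of complex III, where the others held 122 to 199 CPM. In horizontal cells it held 3019 CPM of all members against 2039 to 2141 CPM, and in ganglion cells 5134 CPM against 1923 to 2684 CPM.

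Infancy 5 was low in the other 3. It held 56.2 CPM of complex III against 120 to 140 CPM in the other Infancy retinas, 118 CPM of complex IV against 287 to 342 CPM, and 220 CPM of complex V against 415 to 484 CPM. Both retinas are of version 7.0.1. In complex II no retina stood apart in this way.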

How the results depend on the processing

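The count of 0 called members in each stage comparison of whole retinas held under every alternative run. The 12 members called between versions were 9 to 19 with 1 retina left out, 19 being without Senile 3, and 11 without Infancy 5. With stage removed, 13 of 15 pairs of same-numbered retinas deviated together (correlations of 0.196 to 0.509) and 2 of replicate 3 did not (-0.468 and -0.331). With version removed too, 1 of 15 was above 0.1 (range -0.438 to 0.224), so the numbers were not taken to pair the retinas. A replicate block left 0 members called between versions, since the numbers nearly follow the version, and changed no other call.

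Pairs of member and class called between stages, 0 in each comparison, were 9 (Senile against Infancy), 3 (Mature against Infancy) and 32 (Senile against Mature) without the filter, and 2, 2 and 0 within 5.0.1. With 1 retina left out they were 0 to 1, 0 and 0 to 1, with UQCR10 in rods called without Senile 2 and NDUFA13 in rods without Infancy 5. For the fits within 5.0.1 and with 1 retina left out, the share over all pairs of a feature and a class is not given here. Those counts therefore have no background. The cause of these calls was not tested.

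The summed level of Senile minus Infancy, 726 CPM, was -215 CPM within 5.0.1 and 1700 CPM within 7.0.1, and 203 to 942 CPM with 1 retina left out, 203 being without Senile 3. Mature minus Infancy was -399 CPM (-665 to -258) and Senile minus Mature 1125 CPM (602 to 1341). Between classes 143 of 387 pairs were called, and 136 to 154 with 1 retina left out.

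Of 46 pairs of a member and a class picked by the naming rule, 21 kept direction and call under all alternatives. The sign turned for COX4I1 in horizontal cells with the stricter gate (-2.79e-05), COX7A1 in amacrine cells within 5.0.1 (0.084) and NDUFA11 in astrocytes within 7.0.1 (-0.037). DESeq2 called more of all features, 573 higher and 202 lower for Senile against Infancy, 464 and 231 for Mature against Infancy, and 120 and 62 for Senile against Mature. Within horizontal cells the tests between stages and versions could not be run with the stricter gate, nor could thinned sums between classes. Counts of 7 microglial members and of low members limit what could be called.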

Other observations

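The numbered copies of member names, 88 features with 380049 UMIs in all, followed the members in level. They summed to 1011, 1161, 1085, 998 and 551 CPM in Infancy 1 to 5, to 788, 1028, 659, 925 and 753 CPM in Mature 1 to 5, and to 815, 980, 2346, 1061 and 1345 CPM in Senile 1 to 5. Senile 3 was again the highest and Infancy 5 the lowest. The copies hold more of some subunits than the members do, such as NDUFA12 with 584 UMIs under its own name and 20808 on copies. The 48 antisense features of member names held 35182 UMIs.

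Cytosolic ribosomal proteins were high in 4 retinas of version 7.0.1. They summed to 1381 CPM in Infancy 4, 1487 CPM in Mature 4, 1978 CPM in Senile 3 and 1421 CPM in Senile 5, and to 472 to 749 CPM in the other 11 retinas. The members held 2193, 2178, 5195 and 2853 CPM in these 4 retinas and 1312 to 2943 CPM in the other 11, so that the levels of these sets did not run together in every retina.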
